A study of Mus musculus with 6 samples.

Results

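The p53 family and the proteins that hold it in check were followed in whole mouse embryos at embryonic day 8.5, as probe set signals on Affymetrix Mouse Genome 430 2.0 arrays. The 9 genes were the family members Trp53, Trp63 and Trp73, and the regulators Mdm2, Mdm4, Ppm1d, Zmat3, Rchy1 and Usp7. A probe set is a cluster of short oligonucleotides read out as a single transcript signal. It was taken when its annotation named exactly 1 gene and that gene was among the 9. This gave 24 of the 45101 probe sets on the array, for 8 of the 9 genes. Trp53 itself was not analysed here, because no probe set carried its symbol in the annotation used. The embryos were 3 wild types and 3 littermates of genotype Tcof1+/-, with 1 array per embryo. No other allele or agent is named in the labels, and they state neither the strain nor how the allele was made. The product of Tcof1 is treacle, which works in the nucleolus in the transcription of ribosomal RNA, and the human gene is altered in Treacher Collins syndrome.

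The transcription factor p53 is held at a low level by Mdm2, a ubiquitin ligase that marks it for destruction, helped by the related protein Mdm4. Damage to DNA or to ribosome assembly frees p53 from Mdm2. It then switches on a set of genes that includes Mdm2 and other inhibitors of its own action, which closes a negative feedback loop. Ppm1d, a phosphatase that reverses activating phosphorylation, Zmat3, an RNA-binding zinc finger protein, and Rchy1, another ubiquitin ligase, are also p53-induced. Mdm4 and Usp7, a deubiquitinase that acts on both p53 and Mdm2, were set apart as regulators not placed in the p53-induced group. Trp63 acts mainly in surface epithelia, and Trp73 in the nervous system and in ciliated epithelia.

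For 3 p53-induced regulators a start region is shown because it holds a match to the p53 half-site, the 10-base unit that p53 recognises as a pair. Each runs 5′ to 3′ from 250 bases before an annotated start to 50 bases after it, from RefSeq on GRCm38.p6, with the half-site match in capitals. The Mdm2 window is chr10:117710709-117711008 on the minus strand, the Ppm1d window chr11:85311004-85311303 on the plus strand, and the Rchy1 window chr5:91962507-91962806 on the minus strand.
Mdm2: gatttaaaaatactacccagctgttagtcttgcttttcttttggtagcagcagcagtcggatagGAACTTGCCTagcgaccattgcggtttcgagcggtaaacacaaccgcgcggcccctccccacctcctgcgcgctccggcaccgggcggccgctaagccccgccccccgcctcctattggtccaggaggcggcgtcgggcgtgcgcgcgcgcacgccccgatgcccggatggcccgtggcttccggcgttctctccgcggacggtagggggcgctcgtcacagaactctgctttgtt
Ppm1d: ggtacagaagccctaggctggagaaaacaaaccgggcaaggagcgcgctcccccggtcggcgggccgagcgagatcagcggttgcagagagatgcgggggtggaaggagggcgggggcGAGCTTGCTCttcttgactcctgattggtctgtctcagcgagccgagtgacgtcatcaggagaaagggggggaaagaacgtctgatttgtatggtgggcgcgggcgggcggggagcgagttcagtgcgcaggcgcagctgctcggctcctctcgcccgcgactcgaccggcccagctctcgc
Rchy1: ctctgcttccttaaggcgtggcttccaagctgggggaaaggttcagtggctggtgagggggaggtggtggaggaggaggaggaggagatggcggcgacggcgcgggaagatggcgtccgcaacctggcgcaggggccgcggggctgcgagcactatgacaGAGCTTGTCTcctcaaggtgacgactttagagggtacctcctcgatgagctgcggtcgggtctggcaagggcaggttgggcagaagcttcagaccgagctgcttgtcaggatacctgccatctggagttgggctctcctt
The consensus reads the same on both strands, so 1 search covered both. The match began 186 bases before the start in Mdm2, 132 before it in Ppm1d and 90 before it in Rchy1. Of 10 such windows listed for 7 of the 9 genes, 4 held a match, against 8.36% of the 32851 windows of all genes. No window was listed for Zmat3 or Trp63, so their start regions were not searched. The remaining match was in the window of Trp53, and the windows of Mdm4, Trp73, Usp7 and another start of Rchy1 held none. The Rchy1 window shown belongs to an internal start and lies wholly inside the gene, whose 5′ end is at chr5:91963145. It was the window of the more upstream Rchy1 start, chr5:91963019-91963318, that held no match. A looser pattern of 2 CNNG cores with any 6 bases between them, which also reads the same on both strands, was searched as well. It was in 9 of the 10 windows, including all 4 with a half-site, and in 70.2% of all windows. A match is a run of letters and not a measured binding site. The p53-responsive promoter of Mdm2 is known to lie in its first intron, outside this window.

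The arrays had been scaled by the authors to 1 trimmed mean, and their median signals were 21.0 to 25.6. Bacterial control probe sets that read as background reached at most 8.55 to 13.5 per array. Tcof1 on its brightest probe set was at 179 to 231 in heterozygotes and 382 to 393 in wild types, which is the order the labels give (difference -0.88, limma adjusted p = 0.0352, and 0.413 without the intensity trend in the variance prior). The log2 ratio of the 3 prime to the 5 prime Gapdh control, a measure of RNA integrity, was 0.68 to 0.81 in heterozygotes and 0.84 to 1.04 in wild types, without overlap. Neural tube and neural crest marker sums also did not overlap between genotypes. The summed signal of 8 of 8 neural tube markers was 1658 to 2092 in heterozygotes and 2431 to 2485 in wild types, and that of 6 of 6 neural crest markers was 2469 to 2775 and 3255 to 3569.6. For 6 somite and presomitic markers the sums were 837 to 1048 and 944 to 1494, and for 6 heart markers 5453 to 7377 and 4921 to 5818. The 5 measured of 6 primitive erythroid markers summed to 205 to 5757 in heterozygotes and 3752 to 8222 in wild types, and 6 yolk sac markers to 673 to 12565 and 1497 to 8041. Of 6 trophoblast markers 1 was bright enough to be measured, at 43.8 to 68.6 and 40.5 to 57.0. Of 6 decidual markers 4 were, with sums of 395 to 496 and 376 to 533. No measured marker was at 0 in any array. The part of RNA integrity and tissue makeup in the results that follow was not tested. In these whole-embryo samples, fewer cells of a type and less RNA per cell cannot be told apart.

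Of the 24 probe sets, 17 were bright enough to be tested, and they covered 7 genes. Zmat3 rose 2.14-fold in heterozygotes and was the single probe set of the 17 that passed, at an adjusted p under 0.05 over all probe sets. Over the whole array 0.0777% of the 27022 tested probe sets were called higher and 0.0037% lower. The Mdm2 and Ppm1d probe sets had differences of 0.29 to 0.40 on the log2 scale and did not pass, and their 95% intervals spanned 0 on all but Mdm2 1423605_a_at. Every interval of Trp63, Rchy1 and Mdm4 also spanned 0. The Usp7 probe sets pointed both ways. Differences are heterozygote minus wild type on the log2(signal + 1.87) scale, which understates changes of dim transcripts.

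Zmat3 had the widest gap between genotypes of the 17. Its product binds RNA and affects the stability and splicing of transcripts. The signal was 510.0, 449 and 566 in wild-type embryos 1, 2 and 3, and 1070.0, 1215 and 979 in heterozygous embryos 1, 2 and 3. The lowest heterozygote was above the highest wild type, and the heterozygotes averaged 214% of the wild-type signal. Group means were 508 ± 58.3 and 1088 ± 119 (SD, n = 3 each). The difference was 1.10 (SE 0.11, 95% interval 0.85 to 1.34, limma adjusted p = 0.00664). Within the first scan day (4 arrays) it was 1.25, and within the second (2 arrays) 0.79. The call was lost without wild-type embryo 1 (adjusted p = 0.0528), with the replicate number as a block (adjusted p = 0.0741) and without the intensity trend in limma's variance prior (adjusted p = 0.371). Over 16 alternatives the adjusted p ranged from 0.00531 to 0.371. Zmat3 was among the genes already known from this study to be higher, so its call is not independent evidence.

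**Figure D1:**
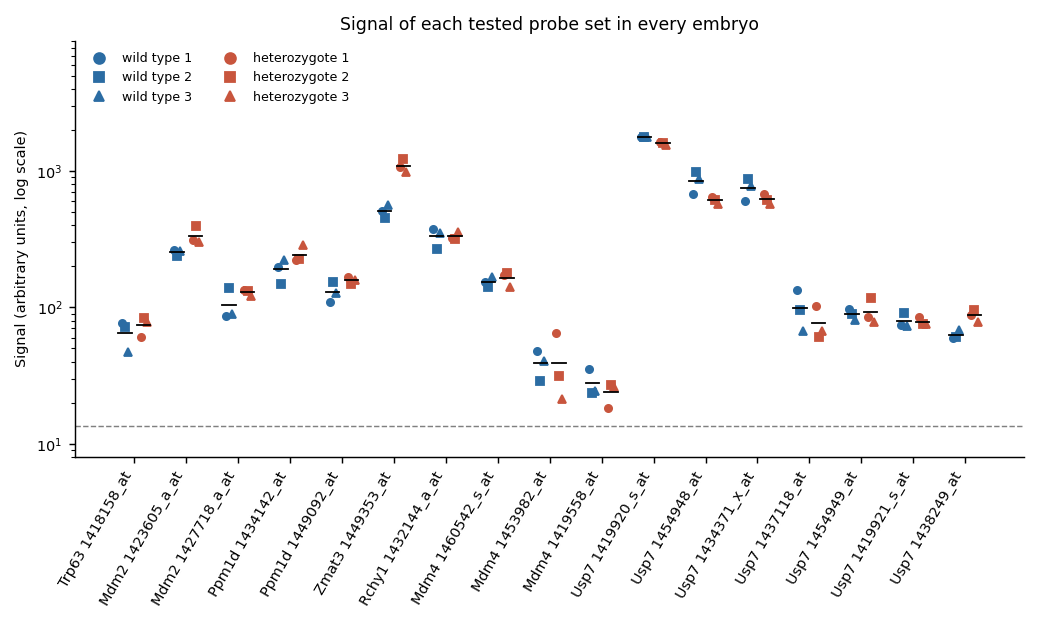
Signal of the 17 tested probe sets in each embryo (y axis, arbitrary units, log scale), with wild types in blue, heterozygotes in red, marker shape for replicate number, black lines at group means and a dashed line at 13.5, the highest background control. Zmat3 separates at 449 to 566 against 979 to 1215, and 12 of the 17 probe sets overlap between genotypes.

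Mdm2, the ubiquitin ligase that degrades p53, was measured by 2 tested probe sets. On 1423605_a_at the signal was 263, 237 and 257 in wild-type embryos 1, 2 and 3, and 312, 395 and 300.5 in heterozygous embryos 1, 2 and 3. All heterozygotes lay above all wild types, with heterozygous embryo 2 the highest. The difference was 0.40 (SE 0.12, 95% interval 0.12 to 0.68, limma adjusted p = 0.692) and did not pass. On 1427718_a_at the wild types gave 86.2, 138 and 89.6 and the heterozygotes 135, 133 and 121. These groups overlapped through wild-type embryo 2, which was above every heterozygote. The difference on that probe set was 0.33 (95% interval -0.087 to 0.75, adjusted p = 0.824). Over the 16 alternatives both differences stayed positive, at 0.28 to 0.49 and 0.21 to 0.55. Signals of different probe sets depend on their own oligonucleotides, so their levels are not compared with each other.

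Ppm1d, the phosphatase known as Wip1, was also represented by a pair of tested probe sets. On 1434142_at the wild types gave 199, 149 and 221 and the heterozygotes 220.4, 225 and 285. Heterozygous embryo 1 was just below wild-type embryo 3, so the groups overlapped. The difference was 0.37 (SE 0.17, 95% interval -0.0026 to 0.74, limma adjusted p = 0.793). On 1449092_at the wild types gave 109, 154 and 127 and the heterozygotes 167, 147 and 159, with a difference of 0.29 (95% interval -0.050 to 0.63, adjusted p = 0.812). Wild-type embryo 2 was the lowest of all on 1434142_at and the highest wild type on 1449092_at. Both differences stayed positive over the 16 alternatives, at 0.21 to 0.49 and 0.17 to 0.41.

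Rchy1, the ubiquitin ligase also called Pirh2, had 1 probe set. It gave 374, 268 and 349.8 in wild types and 319.8, 319.5 and 358 in heterozygotes. The heterozygotes lay inside the wild-type range. The difference was 0.021 (95% interval -0.28 to 0.32, limma adjusted p = 0.984), and it turned negative without wild-type embryo 2, at -0.12, and without heterozygous embryo 3, at -0.034.

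**Figure D2:**
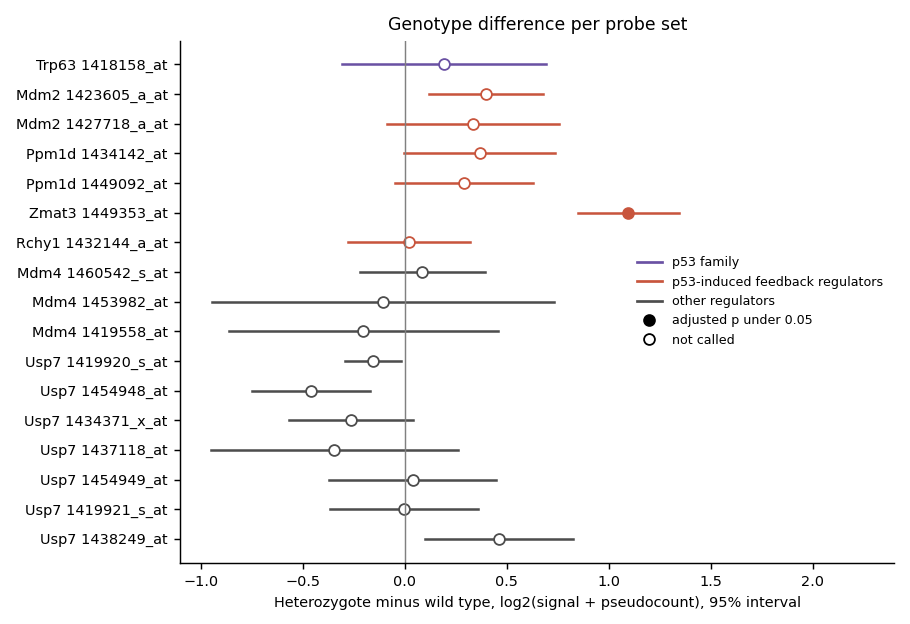
Genotype difference of each tested probe set (x axis, heterozygote minus wild type, log2(signal + pseudocount)) with its 95% interval from limma, coloured by role and filled where the adjusted p was under 0.05. Zmat3 at 1.10 is the single filled point, and the Usp7 probe sets spread from -0.46 to 0.46.

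Trp63 was the family member that could be tested, on 1 of its 4 probe sets. Its product, p63, is needed for the surface ectoderm to form a layered epidermis. On 1418158_at the wild types gave 77.1, 71.7 and 47.1 and the heterozygotes 60.5, 83.4 and 78.4. The groups overlapped, and the lowest value was that of wild-type embryo 3. The difference was 0.19 (SE 0.22, 95% interval -0.31 to 0.69, limma adjusted p = 0.904). Within the first scan day it was -0.065, within the second 0.71, and it was -0.018 without wild-type embryo 3. Of 12 surface ectoderm markers, 7 had positive and 5 negative differences with a median of 0.081, none passed, and their summed signal was 7110.5 to 9259 in heterozygotes and 7301 to 7905 in wild types.

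Trp73 and the remaining Trp63 probe sets were too dim to be tested. Both Trp73 probe sets stayed below the highest background control on every array, at 9.82 to 12.5 and 1.13 to 6.22 in wild types and 1.93 to 10.6 and 1.90 to 7.18 in heterozygotes. The Trp63 probe sets 1451876_a_at, 1452027_a_at and 1459581_at ranged from 0.659 to 27.1. Mdm2 1457929_at (1.43 to 18.9) and Mdm4 1458223_at (2.76 to 16.9) were also left out. Across these 7 probe sets 4 of 42 values exceeded the highest background control, so a genotype difference could not be judged at this brightness.

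Mdm4, the Mdm2 relative that masks the activation domain of p53, had 3 tested probe sets with no common direction. On 1460542_s_at the wild types gave 154, 142 and 167 and the heterozygotes 173, 179 and 141, a difference of 0.087 (95% interval -0.22 to 0.39, limma adjusted p = 0.926). The heterozygotes held both the highest and the lowest value there. On 1453982_at the wild types gave 47.8, 28.9 and 40.4 and the heterozygotes 64.8, 31.5 and 21.3, a difference of -0.11 (adjusted p = 0.969). On 1419558_at they gave 35.3, 23.4 and 24.4, and 18.2, 27.0 and 26.1, a difference of -0.20 (adjusted p = 0.921). The differences of all 3 were small beside the spread between embryos. The difference on 1453982_at turned to 0.27 on the first scan day alone, 0.045 without wild-type embryo 1 and 0.23 without heterozygous embryo 3.

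Usp7, which removes ubiquitin from p53 and from Mdm2, was measured by 7 tested probe sets that differed in direction: 5 were negative and 2 positive, and none passed. On 1419920_s_at the wild types gave 1763, 1777 and 1775 and the heterozygotes 1625, 1598 and 1552. Every heterozygote was below every wild type in a narrow spread, with heterozygotes at 89.8% of the wild-type mean. The difference was -0.15 (SE 0.061, 95% interval -0.29 to -0.018, limma adjusted p = 0.781). On 1454948_at the wild types gave 676, 982 and 877 and the heterozygotes 639, 611 and 572, again without overlap. This difference was -0.46 (SE 0.13, 95% interval -0.75 to -0.17, adjusted p = 0.649), and it ranged from -0.61 to -0.34 over the 16 alternatives.

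A further Usp7 probe set went the other way. On 1438249_at the wild types gave 59.7, 60.2 and 68.0 and the heterozygotes 88.6, 95.1 and 77.7, so every heterozygote was above every wild type. The difference was 0.46 (SE 0.16, 95% interval 0.10 to 0.82, limma adjusted p = 0.742). Its interval and that of 1454948_at did not meet, although the difference between the probe sets was not tested. Which transcript each probe set detects was not analysed here. The other four had differences of -0.34 (1437118_at), -0.27 (1434371_x_at), -0.0028 (1419921_s_at) and 0.039 (1454949_at), with overlap between genotypes. By Affymetrix naming, probe sets ending in _s_at may detect several transcripts and those in _x_at may cross-hybridise.

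**Figure D3:**
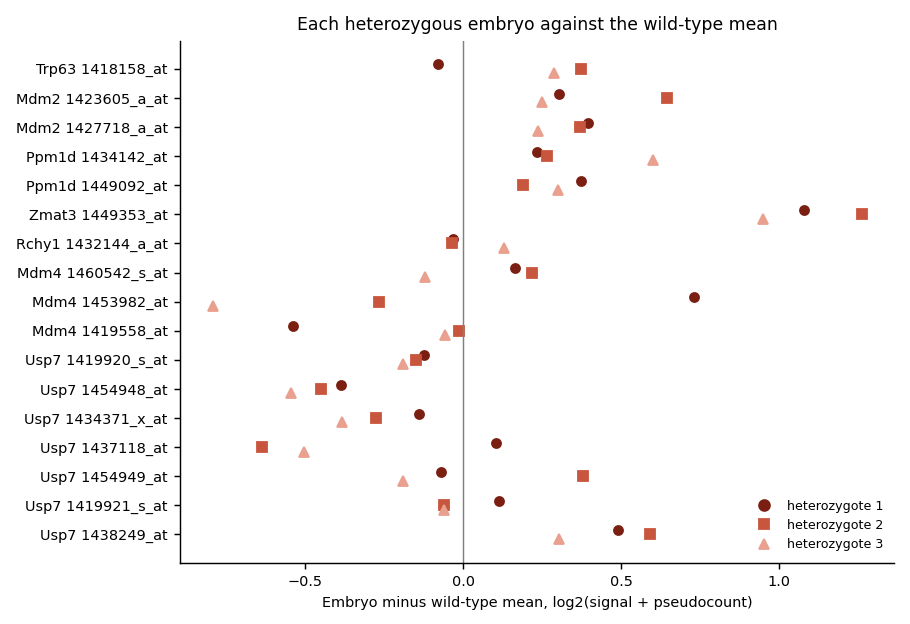
Each heterozygous embryo against the wild-type mean for the 17 tested probe sets (x axis, log2(signal + pseudocount) difference), with marker shape and shade for embryo 1, 2 and 3. All 3 embryos are right of 0 on Mdm2, Ppm1d and Zmat3, and Mdm4 1453982_at spreads from -0.79 to 0.73.

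Set side by side by role, the 6 probe sets of the 4 p53-induced regulators all had positive differences, with a median of 0.35. Relative to the wild-type mean that median was 0.34, 0.32 and 0.28 in heterozygous embryos 1, 2 and 3. Within the first scan day it was 0.33 and within the second 0.34. The 10 probe sets of Mdm4 and Usp7 had 3 positive and 7 negative values around a median of -0.13, with 0.018, -0.10 and -0.19 in the 3 embryos. That median was -0.037 without wild-type embryo 1 and -0.055 without heterozygous embryo 3. Trp63 stood alone for the family, at -0.078, 0.37 and 0.29. Of all tested probe sets 50.9% had positive differences, and their median was 0.0047. Of the 17 probe sets 5 did not overlap between genotypes, 3 higher and 2 lower, where 12.2% of all tested probe sets did not (6% higher and 6.18% lower). These counts describe the probe sets, several of which share a gene, and the genes were chosen with results of these embryos known.

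Whether the regulators differed by genotype more than Trp63 did was tested by subtracting the log2 value of Trp63 1418158_at on each array. Trp53 and Trp73 could not be included, so this fit cannot speak for the family. Zmat3 exceeded Trp63 by 0.90 (SE 0.31, 95% interval 0.30 to 1.50, limma adjusted p = 0.875 over all probe sets), which did not pass. Without wild-type embryo 3, in which Trp63 was lowest, the excess was 1.19 (adjusted p = 2.36e-04), and with only first-day arrays 1.31 (adjusted p = 0.00984). Both settings leave out wild-type embryo 3, so they are not separate results. Under the other 14 alternatives the excess did not pass (limma adjusted p of 0.579 or above). For the brightest probe sets of Mdm2 and Ppm1d the excess was 0.21 (95% interval -0.42 to 0.83) and 0.17 (95% interval -0.46 to 0.81), and for Rchy1 it was -0.17 (95% interval -0.79 to 0.45), each with a limma adjusted p of 0.994. The spread of Trp63 enters every one of these intervals.

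The genes whose profile over the 6 arrays lay nearest to that of Zmat3, by mean absolute difference of log2 values centred on each gene's mean among 12856 other genes, were Tnk1, Mcam and Ddias. Their distances were 0.13, 0.13 and 0.14. Tnk1, a tyrosine kinase gene, was dim, at 8.74 to 26.9. Mcam, a cell adhesion molecule gene, gave 17.6 to 24.6 in wild types and 37.9 to 50.4 in heterozygotes. Ddias, a DNA damage-induced gene, gave 131 to 162 in wild types and 217 to 324 in heterozygotes. Nearest to Mdm2 were Gde1, a phosphodiesterase gene, Ino80c, a chromatin remodelling subunit gene, and Apaf1, the apoptosome gene, at distances of 0.034, 0.044 and 0.046. None of these 6 genes passed in limma (adjusted p from 0.247 to 0.793).

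No gene was called among other regulators of p53. Over the whole array 0.0814% of tested probe sets were called in either direction, so lists of this size would seldom hold a call. Of 13 tested genes for ubiquitin ligases and deubiquitinases of p53 or Mdm2, 0 passed in limma, 8 being positive and 5 negative around a median of 0.027. The smallest p values were those of the deubiquitinase genes Usp42 (0.34, adjusted p = 0.851) and Usp10 (0.078, adjusted p = 0.887). Of 23 tested genes for enzymes that modify p53, 0 passed, with 14 positive and 9 negative. Dapk1, a death-associated kinase gene, was at 382 to 449 in wild types and 533 to 629 in heterozygotes (0.45, limma adjusted p = 0.392). These groups did not overlap, as held for 12.2% of all tested probe sets. The kinase gene Hipk2 differed by -0.32 (limma adjusted p = 0.766). Of 12 tested p53-binding cofactors 0 passed, with 4 positive and 8 negative; Jmy (-0.38, adjusted p = 0.742) and Ppp1r13b (0.37, adjusted p = 0.793) had the smallest p.

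Nucleolar and ribosomal proteins can bind Mdm2 and keep it from p53. Of 12 tested genes for such proteins, 11 had positive and 1 a negative difference, with a median of 0.086, and 0 passed. Over the alternatives that median ranged from 0.043 with quantile normalization to 0.12 without wild-type embryo 2. Over the whole array 50.9% of tested probe sets had positive differences, 12.2% did not overlap between genotypes and 0.0814% were called. The summed signal of these genes was 61661 to 61953 in heterozygotes and 56175 to 57999.7 in wild types. Such a sum gives most weight to the brightest genes. Rps27l, a ribosomal protein gene that p53 induces, was at 1872 to 2575 in wild types and 2765 to 3241 in heterozygotes (0.39, limma adjusted p = 0.653). Ncl, the nucleolin gene, was at 4800.4 to 6122 and 6625 to 6791 (0.25, adjusted p = 0.742).

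Called genes were found in both lists of p53-induced genes, which were drawn up with the earlier results known. Values in brackets below are log2 differences, not fold changes. Of 7 tested p53-induced signalling genes 3 rose and 0 fell: Ccng1, the cyclin G1 gene (2.51), Trp53inp1 (2.14) and Phlda3 (1.28). Of 26 tested effector genes 8 rose and 0 fell, namely Cdkn1a, the p21 gene (3.13), Eda2r (2.62), Dcxr (1.84), Slc19a2 (1.66), Pmaip1 (1.45), Perp (1.28), Ak1 (1.24) and Psrc1 (0.84). The median difference was 0.77 in the former list and 0.49 in the latter. All 11 called genes separated the genotypes without overlap, which their selection by p on the same arrays made likely. Of all tested probe sets, 6% were higher in heterozygotes without overlap. Over the whole array 0.0777% of tested probe sets were called higher. Without the intensity trend 0 of the 11 genes passed in limma. With the replicate block 5 of them did, namely Ccng1, Trp53inp1, Cdkn1a, Eda2r and Slc19a2, among 10 probe sets called on the whole array. It was also 5 of the 11 without any 1 of the wild types or without heterozygous embryo 1 or 2, and 10 without heterozygous embryo 3.

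**Figure D4:**
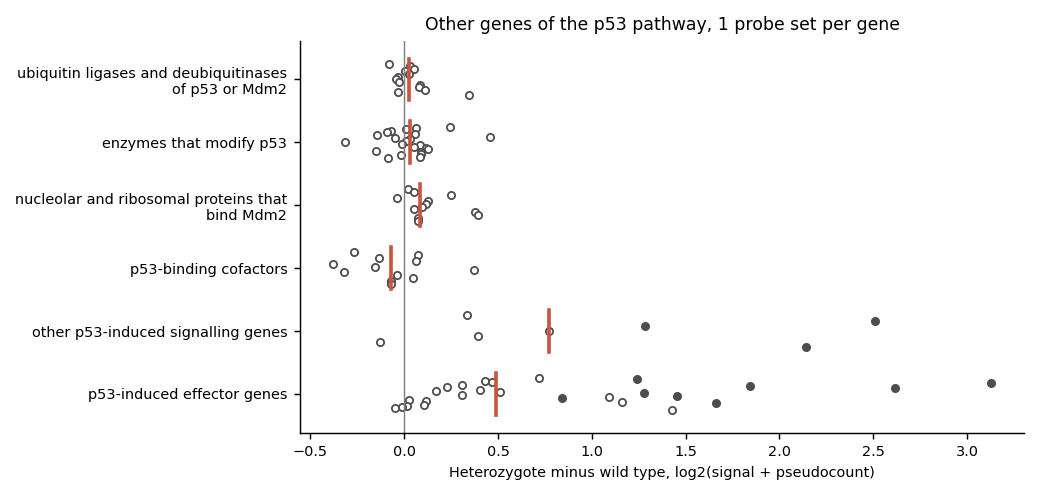
Genotype difference of other p53 pathway genes, 1 probe set per gene (x axis, heterozygote minus wild type, log2(signal + pseudocount)), with filled points at an adjusted p under 0.05 and red lines at list medians. Called genes appear in the lists of p53-induced genes, with medians of 0.77 and 0.49, and the other 4 lists have medians from -0.070 to 0.086.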

How the data were processed

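RNA of 6 embryos (100 ng each) was amplified in 2 cycles and hybridised to 1 array per embryo, per the labels' protocols. The authors deposited 1 linear signal intensity per probe set, made with the scanner software GCOS according to the submitters' processing notes, which as used here give no version or algorithm. Each array had a 2% trimmed mean of 150, found from the values. Of 45101 probe sets, 64 controls and the dimmest 40% of the rest (by mean log2 value, which equals a signal of 13.2) were left out, leaving 27022. Values were taken as log2(signal + 1.87), the 10th percentile, and fitted with limma 3.58.1 in R 4.3.3 (intensity trend, genotype alone, two-sided, Benjamini-Hochberg over all probe sets at 0.05). With 3 embryos per genotype, the number of arrays limits precision. The labels call them biological replicates.

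The members and gene lists were chosen with earlier results of these data known. Named genes were all members; in each pathway list the 2 with the smallest p and any called; the 3 nearest profiles of Zmat3 and Mdm2; and Tcof1. The planned comparison with Trp53 was not run, and Trp63 took its place after the data were seen. Names came from the platform annotation, and 0 symbols changed through RefSeq identifiers on GRCm38.p6 (34945 with 1 symbol, 932 with several, 9160 with none). Scan day came from the file headers: replicates 1 and 2 on the first, 3 on the second. Fluidics modules held 1 genotype each, so module and genotype cannot be told apart. The fit was tested on simulated data whose variance was a smooth function of intensity. Such data cannot show how far the calls depend on the intensity trend. Figures used matplotlib 3.10.9.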

Additional observations from a re-analysis of the deposited data

How the results depend on the processing

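Alternatives were another pseudocount (1 or 7.03), no filter or one at 60%, equal array medians, quantile normalization, no intensity trend, the replicate number or scan day as a block, the first scan day alone and each array left out. Over all probe sets 22 were called, against 0 without the trend (764 higher and 807 lower at an unadjusted p under 0.05, limma), 10 with the replicate block, 14 with scan day as a block, 12 on the first scan day and 8 to 20 without 1 array. The single member call, Zmat3, became 0 without the trend and with the replicate block (adjusted p = 0.0741), and 0 to 1 without 1 array. The deviations of same-numbered embryos from their genotype means had correlations of -0.11 to -0.024. With 3 embryos per genotype these cannot decide whether the numbers mark pairs. Replicate 3 of both genotypes shared the second scan day.

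Without 1 array, the median was -0.15 to -0.037 for Mdm4 and Usp7. Signs turned without 1 array for Trp63 (-0.018 to 0.33), Rchy1 (-0.12 to 0.12), Mdm4 1453982_at (-0.53 to 0.23), Usp7 1454949_at (-0.13 to 0.15) and Usp7 1419921_s_at (-0.060 to 0.097). On the first scan day alone they turned for Trp63 (-0.065) and Mdm4 1453982_at (0.27). Beyond Trp63, Zmat3 was at 0.74 to 1.19 without 1 array and 1.31 on the first scan day, Ppm1d at -0.068 to 0.50 and Rchy1 at -0.40 to 0.087 without 1 array, and Rchy1 at 0.079 on the first scan day. The cause was not tested. For dimmer probe sets, the difference beyond Trp63 turned without wild-type embryo 1 and heterozygous embryo 1 for Mdm2 1427718_a_at (-0.11 and -0.027) and Ppm1d 1449092_at (-0.16 and -0.085). Of the 11 called p53-induced genes, 0 passed without the trend and 5 with the replicate block. The brightest Tcof1 probe set did not pass without the trend, with either block, on the first scan day or without any 1 array (limma adjusted p of 0.0586 to 0.413). The other genotype differences of member probe sets kept their direction and did not pass under any alternative; Mdm4 1453982_at and 1419558_at fell below the 60% filter. Probe sets near the background controls limit what Trp73 can show.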
